A study of Mus musculus with 6 samples.

Results

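The genes of the growth hormone receptor, IGF1 and STAT5 axis were followed in mouse liver through 24 probe sets of the 22626 that were not controls on the array. A probe set is a group of short probes read together as 1 value, and some probe sets match more than 1 transcript. The 24 were all those annotated to exactly 1 of 10 genes (Ghr, Jak2, Stat5a, Stat5b, Igf1, Igfals, Socs2, Cish, Socs3 and Egfr), and 0 probe sets named one of these together with another gene. Livers of 3 PiZ transgenic mice were set against livers of 3 wild-type mice, all 6 weeks old and of C57BL/6 background, with 1 one-colour Affymetrix array for each mouse. PiZ mice express the human Z variant of alpha-1 antitrypsin, a secreted protease inhibitor whose Z form folds poorly and is retained in hepatocytes. No label states which promoter drives the transgene, nor the sex, feeding state or hour of sampling of the mice. The values are log2 intensities, so a difference of 1 stands for a doubling of intensity.

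Growth hormone from the pituitary binds its receptor, encoded by Ghr, on hepatocytes. The receptor carries the kinase JAK2, which phosphorylates the transcription factors STAT5A and STAT5B. Active STAT5 induces Igf1 and Igfals, whose products circulate together, and it induces Socs2 and Cish, whose products damp the same receptor. In rodents the axis also sets the sex-dependent pattern of many liver genes, because males release growth hormone in sharper pulses than females.

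The arrays differed in RNA quality as well as in genotype. The Gapdh control transcript is read near both of its ends, and the log2 excess of its 3′ over its 5′ reading, which grows as RNA is shortened, was 1.99, 4.39 and 4.01 in PiZ replicates 1, 2 and 3, against 1.49, 2.06 and 1.65 in wild-type replicates 1, 2 and 3. PiZ replicate 1 was thus close to wild-type in this measure, and its own difference from wild-type is given beside some genes. A fit with it as the only PiZ array holds no spread between PiZ mice. The p-values and calls of that fit are therefore not given, but counts over alternative fits include it. Over all genes 9.97% rose and 11.2% fell. Of 7 measured hepatocyte markers 1 rose and 1 fell (14.3% each). The mean level of the list was 14.03 to 14.29 in PiZ and 14.15 to 14.23 in wild-type. Of 4 measured neutrophil markers S100a8 and S100a9 rose (list mean 6.12 to 6.40 in PiZ, 4.73 to 5.18 in wild-type), and Kupffer cell and macrophage markers rose in 3 of 7 (9.14 to 9.48 in PiZ, 8.95 to 9.09 in wild-type). The lists for endothelial, stellate, biliary, lymphoid and erythroid cells had 0 members called. Their part in the results was not tested. In whole liver, fewer cells of a type and less RNA per cell cannot be told apart. Of 4 measured genes of the sex chromosomes, Kdm5d fell by 0.88 without overlap (5.99 to 6.39 in PiZ, 6.99 to 7.25 in wild-type). Eif2s3y (8.77 to 8.99 in PiZ, 8.79 to 9.42 in wild-type), Uty and Xist overlapped and were not called.

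The receptor, the hormone with its carrier, the feedback inhibitors and most Egfr probe sets were lower in PiZ liver, while neither Jak2 nor the STAT5 genes passed the test. Of the 24 probe sets 16 fell and 0 rose at an adjusted p below 0.05 (limma, Benjamini-Hochberg over all 22626 probe sets). This was 66.7% of the members, where 10.2% of all probe sets fell and 8.91% rose. The members were chosen with earlier results of these data known, so this share is a description and not a test. All probe sets of 6 genes fell (Ghr, Igf1, Igfals, Socs2, Cish and Socs3), and so did some of Egfr. The median difference, PiZ minus wild-type, was -1.07 over the members and 0.08 over all probe sets. Of the 24 probe sets 14 were called lower with a fall of at least 2-fold, as were 3.29% of all probe sets. The groups did not overlap for the same number, 16 lower in PiZ and 2 higher, where 18.6% and 23.4% of all probe sets did so (42.0% in either direction).

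**Figure D1:**
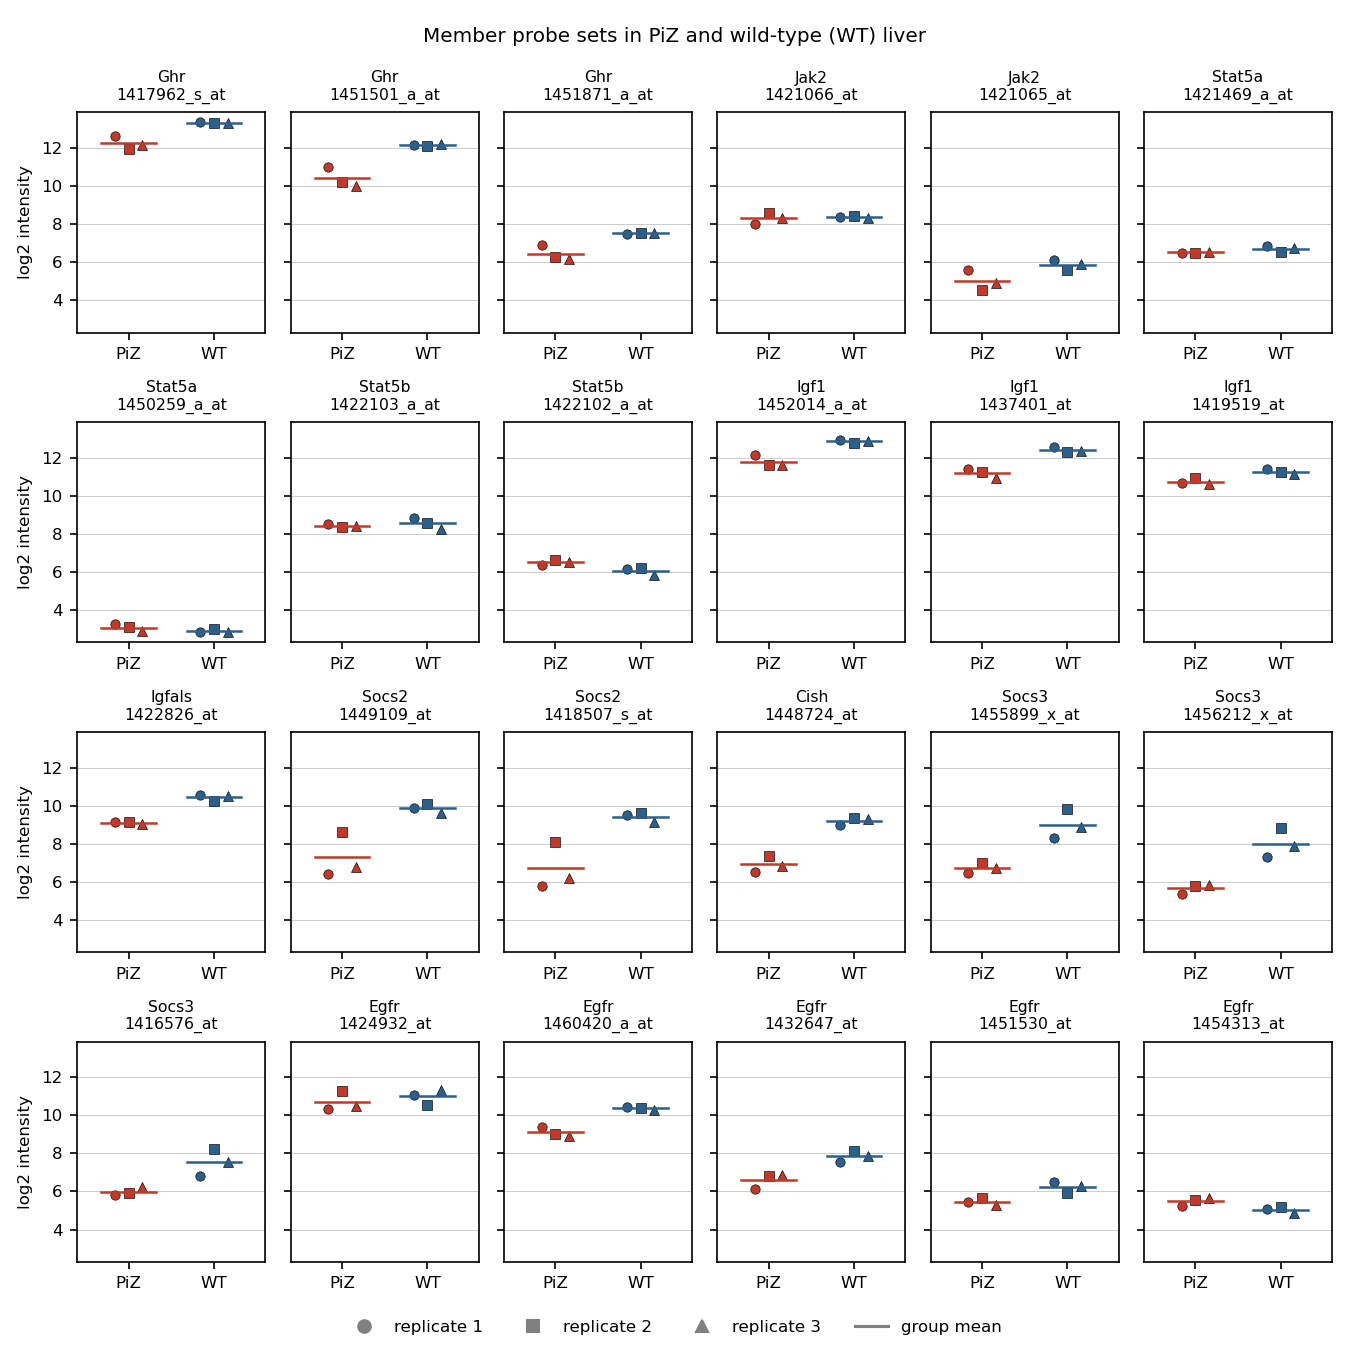
Log2 intensity of each member probe set (vertical axis) in PiZ and wild-type (WT) liver, with 1 point for each array and a line at the group mean (n = 3 each). The probe sets of Ghr, Igf1, Igfals, Socs2, Cish and Socs3 lie lower in PiZ without overlap. Those of Stat5a and Jak2 and the brighter one of Stat5b overlap.

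Ghr, the receptor gene, was lower on every PiZ array in each of its 3 probe sets. The brightest, 1417962_s_at, read 12.61, 11.97 and 12.18 in PiZ, against 13.34, 13.31 and 13.30 in wild-type. The wild-type arrays lay within a narrow band and the PiZ arrays below it, with PiZ replicate 1 the nearest. The difference was -1.06 (SE 0.17, limma adjusted p = 0.00776), or 2.09-fold lower. Probe set 1451501_a_at showed a larger fall, with 11.004, 10.23 and 10.001 in PiZ, against 12.14, 12.08 and 12.19 in wild-type. It fell by 1.73 (SE 0.24, adjusted p = 0.00548), which is 3.31-fold, and the dimmer 1451871_a_at fell by 1.08 (SE 0.19, adjusted p = 0.011). The 3 probe sets had fitted differences between -1.73 and -1.06, and the interval of the smallest was -1.46 to -0.67. In PiZ replicate 1 alone the 3 differences were smaller, at -0.71, -1.13 and -0.63. Only the call of 1451871_a_at was lost on leaving out an array, at adjusted p = 0.0512 without wild-type replicate 1 and 0.0547 without wild-type replicate 3.

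Jak2, the receptor-bound kinase, had 2 probe sets and neither was called. The brighter, 1421066_at, read 7.99, 8.57 and 8.34 in PiZ, against 8.40, 8.45 and 8.32 in wild-type. The groups overlapped, and the difference of -0.09 had a 95% interval of -0.46 to 0.28 (adjusted p = 0.716). Its sign turned in some scalings, to 0.01 after cyclic loess, 0.02 after a further quantile normalization and 0.25 when arrays were centred on reference genes. The dimmer 1421065_at read 5.60, 4.54 and 4.92 in PiZ, against 6.10, 5.58 and 5.89 in wild-type. Here PiZ replicates 2 and 3 were low and PiZ replicate 1 lay within the wild-type range. This difference of -0.84 (interval -1.46 to -0.21) did not pass (limma adjusted p = 0.0665), with -0.26 in PiZ replicate 1 alone. Without PiZ replicate 1 it was -1.12 and passed (limma adjusted p = 0.00165).

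The STAT5 transcription factors showed no fall of the size seen for the receptor. For Stat5b, the main STAT5 protein of male mouse liver, probe set 1422103_a_at read 8.53, 8.35 and 8.43 in PiZ, against 8.81, 8.57 and 8.26 in wild-type. The difference was -0.11 (interval -0.47 to 0.25, limma adjusted p = 0.62), with overlapping groups. Its other probe set, 1422102_a_at, went the other way, with 6.39, 6.61 and 6.52 in PiZ, against 6.13, 6.20 and 5.86 in wild-type. That difference of 0.44 (interval 0.14 to 0.74) just missed the threshold at adjusted p = 0.0538, and it passed in 5 of 17 alternative fits, among them the one without PiZ replicate 1 (0.50, adjusted p = 0.0147). Stat5a, the close relative of Stat5b, differed by -0.20 (interval -0.47 to 0.07) in 1421469_a_at and by 0.18 (interval -0.13 to 0.49) in 1450259_a_at, which lay near the bottom of the array's range. The value for 1421469_a_at turned to 0.14, and that for Stat5b 1422103_a_at to 0.22, on centring on reference genes. These values are mRNA levels, and STAT5 phosphorylation was not measured.

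Igf1, the hormone that liver releases under growth hormone, fell in its 3 probe sets by unequal amounts. Probe set 1452014_a_at read 12.15, 11.60 and 11.62 in PiZ, against 12.91, 12.78 and 12.89 in wild-type. The groups were apart by more than the spread within either, and the fall was 1.07 (SE 0.16, limma adjusted p = 0.00706), or 2.10-fold. In 1437401_at the values were 11.40, 11.23 and 10.93 in PiZ, against 12.58, 12.32 and 12.36 in wild-type, a fall of 1.24 (SE 0.15, adjusted p = 0.00338). The third, 1419519_at, fell by 0.53 (SE 0.13, adjusted p = 0.0304), less than the other two. The first pair passed in all fits run. For 1419519_at the call was lost in 8 of 17, among them cyclic loess (-0.40, adjusted p = 0.0922), centring on reference genes (-0.20, adjusted p = 0.428), and each fit without 1 of the wild-type arrays or without PiZ replicate 3 (adjusted p = 0.0847 to 0.127).

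Igfals, which encodes the acid-labile subunit that holds IGF1 in a large complex in blood, fell evenly. Its probe set 1422826_at read 9.16, 9.15 and 9.01 in PiZ, against 10.55, 10.26 and 10.52 in wild-type. No PiZ array came within 1 log2 unit of the lowest wild-type array. The difference was -1.34 (SE 0.12, limma adjusted p = 0.00137), or 2.52-fold lower, and it passed in 18 of 18 alternative fits with values between -1.43 and -1.0. PiZ replicate 1 alone, with a 3′ to 5′ difference near that of wild-type, gave -1.28.

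Socs2, a target and inhibitor of growth hormone signalling whose loss makes mice grow large, showed the largest falls among the members. Probe set 1449109_at read 6.41, 8.63 and 6.79 in PiZ, against 9.86, 10.08 and 9.61 in wild-type. PiZ replicates 1 and 3 were far below wild-type, and PiZ replicate 2 lay between. The difference was -2.58 (SE 0.52, limma adjusted p = 0.0167), and in 1418507_s_at, with the same order of arrays, it was -2.71 (SE 0.54, adjusted p = 0.0157). These ranked 18 and 14 among the falls of all 22626 probe sets. The PiZ arrays spread more (SD 1.19 and 1.23) than for any other member. Leaving out PiZ replicate 2 gave -3.25 and -3.40 (adjusted p = 0.00105 and 0.000998). Both calls were lost without PiZ replicate 3 (adjusted p = 0.0705 and 0.067) and without wild-type replicate 1, 2 or 3 (adjusted p = 0.0576 to 0.0674).

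Cish, which encodes another SH2 protein of the SOCS family and is a classical STAT5 target, fell on every PiZ array. Probe set 1448724_at read 6.50, 7.37 and 6.85 in PiZ, against 8.97, 9.36 and 9.30 in wild-type. Every PiZ array was more than 1 log2 unit under the lowest wild-type array. The difference was -2.30 (SE 0.23, limma adjusted p = 0.0017), a 4.93-fold fall, and it passed in 18 of 18 alternative fits (-2.79 to -1.97). As for Socs2, PiZ replicate 1 was the lowest and PiZ replicate 2 the highest of the PiZ arrays, the reverse of the order in Ghr 1417962_s_at.

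Socs3, an inhibitor induced above all by STAT3 after interleukin-6 and able to block the growth hormone receptor too, was lower in its 3 probe sets. Probe set 1455899_x_at read 6.43, 6.98 and 6.74 in PiZ, against 8.28, 9.83 and 8.88 in wild-type. Here the wild-type arrays spread more (SD 0.78) than the PiZ arrays (SD 0.27), and wild-type replicate 1 was the nearest to PiZ. The difference was -2.28 (SE 0.36, limma adjusted p = 0.00803), and 1456212_x_at fell by 2.34 (SE 0.36, adjusted p = 0.0069). The suffix x marks probes that may bind other transcripts as well. Probe set 1416576_at, without that suffix, fell by 1.53 (SE 0.33, adjusted p = 0.0195). Its call was lost without PiZ replicate 2 (limma adjusted p = 0.0637), PiZ replicate 3 (0.0538) or wild-type replicate 3 (0.079). The probe sets of suffix x passed in every fit. In PiZ replicate 1 alone 1416576_at differed by -1.70.

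Promoters of the members were searched for the letters that STAT5 is known to bind, TTCNNNGAA, which reads the same on both strands. RefSeq windows of 300 bases (250 before and 50 after a transcript start, GRCm38.p6) were held for 9 of the 10 genes, in 14 windows, with none for Socs2. The motif stood in 4 of the 14, those of Cish, Socs3 and Igfals, and in 8.3% of all 32851 windows of this length. Cish held 2 copies, beginning at bases 1 and 12 of the transcript, and 0.457% of all windows held at least 2. The Socs3 copy began 154 bases before the start, and the Igfals copies 236 and 58 bases before the starts of different transcripts. No match was found in the windows of Ghr, Igf1, Egfr, Jak2, Stat5a and Stat5b. The 4 windows with the motif are given 5′ to 3′ on the gene's strand, with the motif in capitals. For Cish 80 bases before the start and 24 after it are shown, and for the others the 250 bases before it. A match is a run of letters and not a measured binding site.
Cish, chr9:107296579-107296682, plus strand: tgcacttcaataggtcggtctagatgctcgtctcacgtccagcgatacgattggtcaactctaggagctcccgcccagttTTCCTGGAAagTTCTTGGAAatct
Socs3, chr11:117969367-117969616, minus strand: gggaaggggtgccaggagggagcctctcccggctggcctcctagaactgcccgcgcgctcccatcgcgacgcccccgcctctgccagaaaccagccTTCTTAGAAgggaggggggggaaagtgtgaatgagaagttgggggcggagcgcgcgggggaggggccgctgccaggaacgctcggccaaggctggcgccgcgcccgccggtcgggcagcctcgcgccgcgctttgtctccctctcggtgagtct
Igfals, first window, chr17:24877594-24877843, plus strand: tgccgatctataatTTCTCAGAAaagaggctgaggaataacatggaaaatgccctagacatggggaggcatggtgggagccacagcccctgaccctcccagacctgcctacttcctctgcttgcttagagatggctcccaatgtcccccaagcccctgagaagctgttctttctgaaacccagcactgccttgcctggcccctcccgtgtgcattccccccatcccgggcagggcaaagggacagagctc
Igfals, second window, chr17:24877981-24878230, plus strand: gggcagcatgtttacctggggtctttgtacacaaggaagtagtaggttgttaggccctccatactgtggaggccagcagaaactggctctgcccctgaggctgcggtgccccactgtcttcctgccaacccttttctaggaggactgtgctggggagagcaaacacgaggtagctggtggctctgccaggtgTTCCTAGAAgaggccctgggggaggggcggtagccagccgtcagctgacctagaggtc

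Egfr, the receptor for epidermal growth factor, whose liver level depends on growth hormone in mice, fell in 3 of its 5 probe sets. Probe set 1460420_a_at read 9.37, 9.02 and 8.92 in PiZ, against 10.45, 10.39 and 10.28 in wild-type. The groups were well apart, with a fall of 1.27 (SE 0.14, limma adjusted p = 0.00257), or 2.41-fold, that passed in 17 of 17 alternative fits. Probe set 1432647_at fell by 1.23 (SE 0.24, adjusted p = 0.0149) and 1451530_at by 0.76 (SE 0.18, adjusted p = 0.0253). The brightest, 1424932_at, did not follow, with 10.35, 11.26 and 10.46 in PiZ, against 11.08, 10.56 and 11.36 in wild-type. There the groups overlapped and the difference was -0.31 (interval -0.98 to 0.36, adjusted p = 0.456), or 0.02 when centred on reference genes. The dim 1454313_at read higher on all PiZ arrays (0.44, interval 0.10 to 0.78, adjusted p = 0.0714) and passed without PiZ replicate 1 (0.56, adjusted p = 0.00651). The probe sets of Egfr thus disagreed, and which transcripts each reads was not analysed here. The call of 1432647_at was lost without wild-type replicate 2 or 3 (adjusted p = 0.0608 and 0.0658), and that of 1451530_at without PiZ replicate 3, wild-type replicate 1 or wild-type replicate 3 (adjusted p = 0.0922, 0.0987 and 0.103). In PiZ replicate 1 alone 1451530_at differed by -0.78. The covariate on 3′ to 5′ differences gave it a limma adjusted p of 0.0973, and centring on reference genes ended both calls (0.056 and 0.135).

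**Figure D2:**
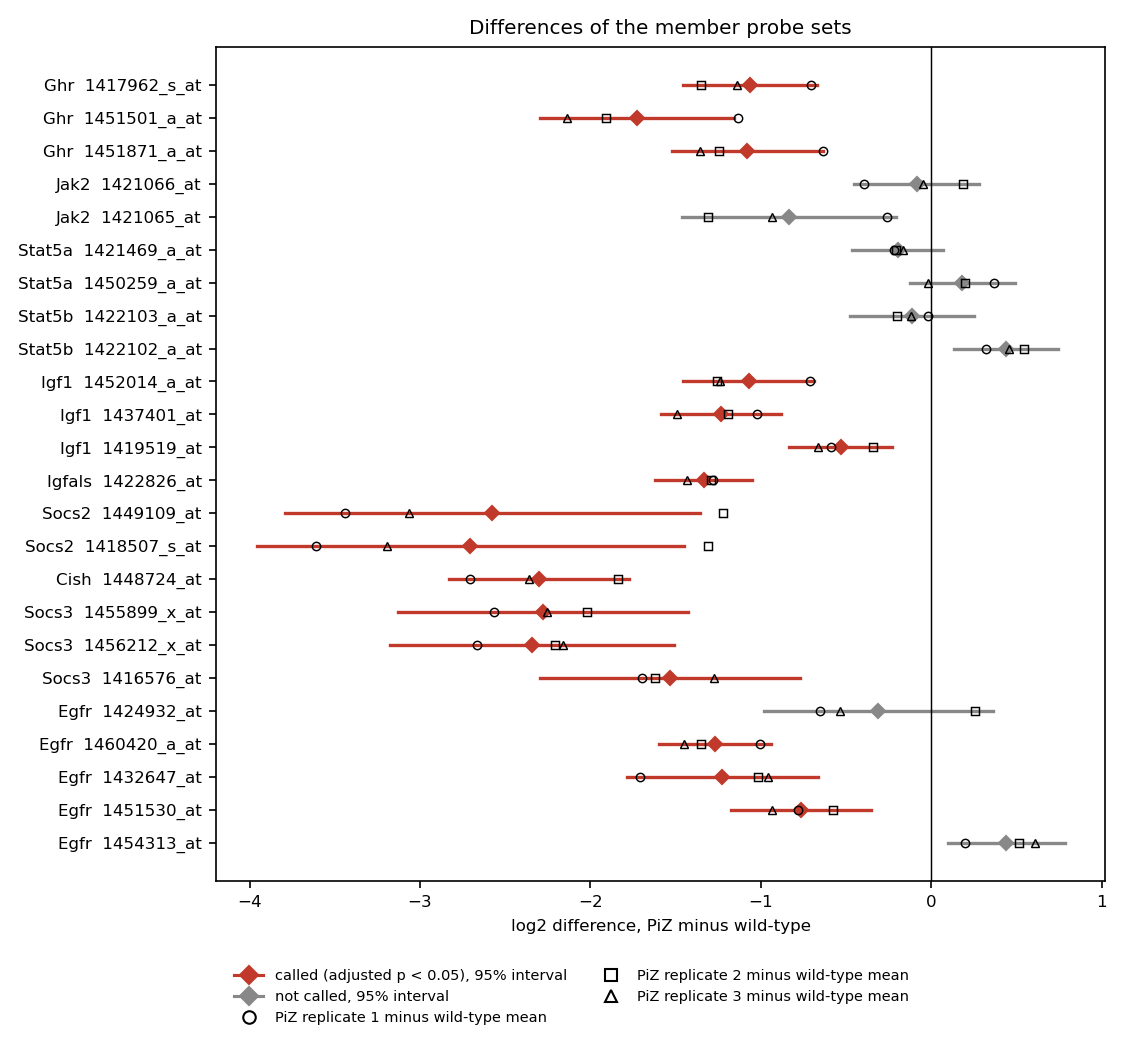
Log2 difference, PiZ minus wild-type (horizontal axis), of each member probe set, with its 95% interval from limma (n = 3 each); open symbols are the single PiZ arrays minus the wild-type mean. Both probe sets of Socs2, Cish and the pair of Socs3 probe sets of suffix x lie farthest to the left, and PiZ replicate 1 (circles) is nearest to 0 for Ghr and farthest from it for Socs2 and Cish.

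The PiZ arrays took different orders in different members. Over the 24 probe sets the median difference from the wild-type mean was -0.75 in PiZ replicate 1, -1.23 in PiZ replicate 2 and -1.19 in PiZ replicate 3, and over all probe sets it was 0.01, 0.10 and 0.08. For Ghr and for Igf1 1452014_a_at, PiZ replicate 1, the array with the smallest 3′ to 5′ difference of the PiZ group, was the nearest to wild-type. For Socs2, Cish and the 3 probe sets of Socs3 it was the farthest. With the mean 3′ to 5′ difference of both control transcripts as a covariate 14 of the 16 calls were kept, where 6.63% of all probe sets fell.

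Likeness over the arrays was described for the brightest probe sets of Igf1 and Socs2, against 2214 other genes with a mean of at least 6 and a range of at least 1. The genes most like Igf1 were Sfpq, Ldah, Stag2, Acsm3 and Serping1 (Pearson r from 0.9982 to 0.9987 over 6 arrays). Those most like Socs2 were Carmil1, Iigp1, Masp2, Bcar1 and Trpm7 (r from 0.9796 to 0.9883). The 6 points of each value are the same 6 arrays, 3 of each group, so any gene that is lower on all PiZ arrays scores high.

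The wider IGF system moved both ways in PiZ liver. Igfbp1, which encodes a binding protein that liver makes when insulin is low or under stress, read 13.88, 13.61 and 13.51 in PiZ, against 12.20, 10.55 and 9.49 in wild-type. The wild-type arrays differed widely and all lay below PiZ, and the rise was 2.92 (SE 0.59, limma adjusted p = 0.0166). Igfbp3, whose product carries IGF1 in blood together with the acid-labile subunit, read 8.98, 8.81 and 8.94 in PiZ, against 9.41, 9.48 and 9.37 in wild-type, a fall of 0.51 (SE 0.10, adjusted p = 0.0177). The docking proteins of the insulin and IGF1 receptors moved apart. Irs1 fell by 1.61 (SE 0.31, adjusted p = 0.0138) and Irs2 rose by 1.52 (SE 0.34, adjusted p = 0.0225), each without overlap. Both calls were lost without wild-type replicate 1 or 3, that of Irs1 also without wild-type replicate 2 and that of Irs2 without PiZ replicate 2 (adjusted p = 0.0526 to 0.0932). With the 3′ to 5′ covariate they had adjusted p = 0.0657 and 0.065. Igfbp3 kept its call only without PiZ replicate 1 or 2 among the fits that left out 1 array (otherwise adjusted p = 0.0525 to 0.0821). Igfbp7 fell by 0.68 (SE 0.15, adjusted p = 0.0222), a call lost on leaving out any array but PiZ replicate 1, and its 3 probe sets ran from -0.68 to 0.29. The receptors Igf1r (0.12, adjusted p = 0.516, and -0.10 in PiZ replicate 1 alone), Igf2r (0.01, adjusted p = 0.958) and Insr (0.17, adjusted p = 0.317) did not pass. Of 18 measured genes of the list 3 rose and 4 fell (16.7% and 22.2%), with a median of 0.11, where 9.97% of all genes rose and 11.2% fell with a median of 0.08. Between 0 and 4 rose and between 0 and 5 fell when 1 array was left out, with 0 risers without PiZ replicate 2 and 0 fallers without wild-type replicate 1 or 2. Igfbp1 lost its call without PiZ replicate 2 (limma adjusted p = 0.0528), PiZ replicate 3 (0.0599) or wild-type replicate 2 (0.0655). In PiZ replicate 1 alone the differences were 3.13 for Igfbp1, -0.44 for Igfbp3 and -0.39 for Igfbp7. Igfbp3 and Igfbp7 were not called with the covariate (limma adjusted p = 0.0643 and 0.11) or when centred on reference genes (0.41 and 0.113). The falls in the list numbered 0 with the covariate and 1 after centring.

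**Figure D3:**
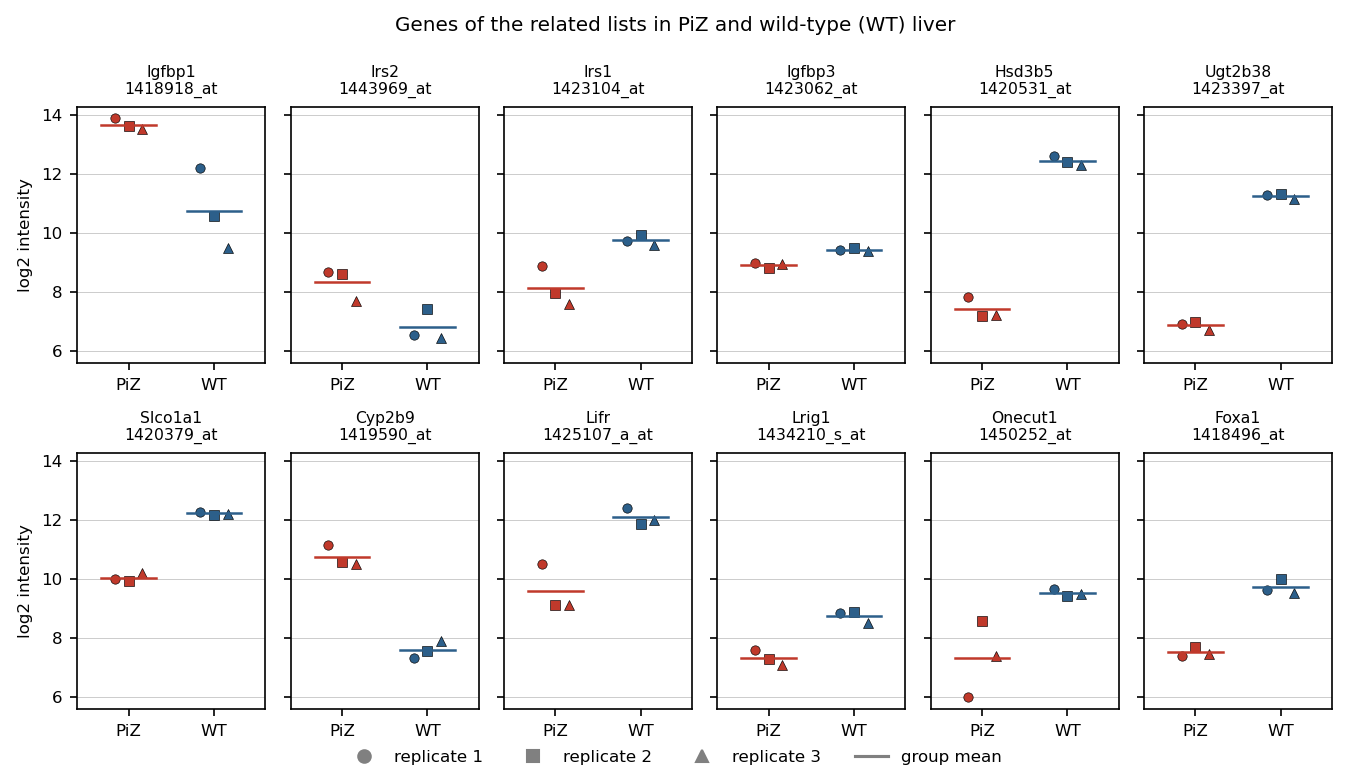
Log2 intensity (vertical axis) of 12 genes of the related lists in PiZ and wild-type (WT) liver, 1 point for each array and a line at the group mean (n = 3 each). Igfbp1, Irs2 and Cyp2b9 lie higher in PiZ and the other 9 lower, without overlap; Hsd3b5 and Ugt2b38 show the widest gaps.

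In the brightest probe set of each gene, other cytokine receptors and JAK-STAT genes changed little beside Lifr. Lifr, the receptor for leukaemia inhibitory factor and a female-biased gene in mouse liver, read 10.51, 9.09 and 9.10 in PiZ, against 12.39, 11.85 and 11.99 in wild-type. It fell by 2.51 (SE 0.38, limma adjusted p = 0.00662), and its 3 probe sets ran from -2.51 to -0.33. Of 18 measured genes it was the 1 called, with 0 that rose and a median of 0.06, where 11.2% of all genes fell, 9.97% rose and the median was 0.08. Stat3 (-0.15, and 0.18 centred on reference genes), Jak1 (-0.41, and 0.01 in PiZ replicate 1 alone), Lepr (0.06, and -0.02 after cyclic loess), Leprot (-0.21, and 0.12 centred on reference genes) and Leprotl1 (0.30) had adjusted p = 0.102 to 0.844. The probe sets of Lepr ran from -0.92 to 0.06, those of Stat3 from -0.15 to 0.44 and those of Leprot from -0.22 to 0.21. Those of Jak1 ran from -0.41 to -0.11, and those of Leprotl1 from 0.09 to 0.30. Without PiZ replicate 1 the list had 5 risers. Among other SOCS genes and phosphatases, Socs6 fell by 1.28 (SE 0.34, adjusted p = 0.0385), Socs5 by 0.56 and Pias1 by 0.43, and Elob, a partner of the SOCS box, rose by 0.63. These 4 calls were lost without PiZ replicate 3 or any wild-type array, and all but that of Pias1 also without PiZ replicate 2 (adjusted p = 0.0549 to 0.152). In PiZ replicate 1 alone Socs6 differed by -0.41 and Elob by 0.29. Socs6, Elob and Pias1 were not called with the covariate (limma adjusted p = 0.127, 0.233 and 0.0509). Socs5 and Pias1 were not called when centred on reference genes (0.397 and 0.688). The other probe sets of Socs6, Socs5 and Elob differed by -0.10, -0.15 and -0.15. In all 1 of 17 rose and 3 fell (5.88% and 17.6%, median 0.10), against 9.97% and 11.2% of all genes. Centring on reference genes turned this to 7 that rose and 1 that fell, and 0 fell without PiZ replicate 3 or without any one wild-type array. The phosphatases Ptpn1 (0.63, adjusted p = 0.0695) and Ptpn11 (-0.31, adjusted p = 0.0944, and 0.02 centred on reference genes) did not pass.

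Among genes around Egfr 1 of 22 rose and 5 fell, and centring on reference genes made this 3 and 3, the replicate block 4 and 5. Lrig1, a membrane protein that lowers EGF receptor levels, read 7.59, 7.29 and 7.08 in PiZ, against 8.82, 8.85 and 8.48 in wild-type, and fell by 1.40 (SE 0.17, limma adjusted p = 0.00331), although its 3 probe sets ran from -1.60 to 0.38. The adaptor Gab1 fell by 0.98, the exchange factors Sos2 by 0.96 and Sos1 by 0.73, and the receptor Erbb3 by 0.72 (adjusted p = 0.00239 to 0.0125). Other probe sets of these genes reached 0.17 for Gab1, -0.06 for Sos1 and 0.16 for Erbb3. The call of Sos1 was lost without wild-type replicate 1 or 3, and that of Erbb3 without any one wild-type array (adjusted p = 0.0511 to 0.0643). Sos1, at -0.57 in PiZ replicate 1 alone, was also not called with the covariate (limma adjusted p = 0.0587). Neither Sos1 nor Erbb3 was called when centred on reference genes (0.0971 and 0.153). The shares were 4.55% higher and 22.7% lower (median 0.04), against 9.97% and 11.2% of all genes, and 3 fell without wild-type replicate 1 or 3. The ligand Hbegf (0.10, and -0.14 in PiZ replicate 1 alone) and the inhibitor Errfi1 (-0.27, and 0.06 centred on reference genes) did not pass.

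Among male-biased liver genes that depend on growth hormone, 13 of 31 were lower in PiZ and 0 were higher. Hsd3b5, a steroid dehydrogenase of male liver, read 7.82, 7.17 and 7.22 in PiZ, against 12.60, 12.41 and 12.29 in wild-type. The glucuronosyltransferase gene Ugt2b38 read 6.90, 6.99 and 6.71 in PiZ, against 11.26, 11.33 and 11.13 in wild-type. Both gaps were many times the spread within a group, at -5.03 (SE 0.19) and -4.37 (SE 0.12). Serpina12 (vaspin) fell by 2.53 (SE 0.25), the anion transporter Slco1a1 by 2.18 (SE 0.12) and the oxysterol hydroxylase Cyp7b1 by 0.70 (SE 0.17, limma adjusted p = 0.0324), a call lost on leaving out any array but PiZ replicate 1 (adjusted p = 0.0503 to 0.107), with the covariate (0.0728) and after centring on reference genes (0.208). The other probe sets of Serpina12, Slco1a1 and Cyp7b1 differed by -0.59, -2.54 and -1.74. The lipid elongase Elovl3 (-0.94, limma adjusted p = 0.313) and Cyp4a12a (-0.15, adjusted p = 0.528, and 0.19 centred on reference genes) did not pass. The share that fell was 41.9% and the median -0.55, against 11.2% that fell and a median of 0.08 over all genes. The list was chosen with earlier results of these data known, so its share is a description and not a test. The number of falls was 7 without wild-type replicate 1 and 19 without PiZ replicate 1.

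Female-biased liver genes went both ways. Cyp2b9, a cytochrome gene of female liver, read 11.13, 10.57 and 10.51 in PiZ, against 7.32, 7.54 and 7.90 in wild-type, and rose by 3.15 (SE 0.21, limma adjusted p = 0.000373). The fatty acid transporter Cd36 rose by 2.02 (SE 0.12, adjusted p = 0.00022). Against these, the hydroxyacid oxidase Hao2 fell by 2.20 (SE 0.39, adjusted p = 0.0111, and 0.0556 without wild-type replicate 3 and 0.0678 with the covariate), and Lifr fell as well. Of 33 measured genes 6 rose and 4 fell (18.2% and 12.1%), with a median of 0.17, against 9.97% and 11.2% of all genes. Centring on reference genes gave 13 that rose and 4 that fell. Without PiZ replicate 1 the number that fell was 8, and without wild-type replicate 3 it was 2. Cux2, a repressor of male-biased genes in female liver, was dim and differed by 0.30 (adjusted p = 0.083), and Trim24 by 0.47 (adjusted p = 0.14).

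**Figure D4:**
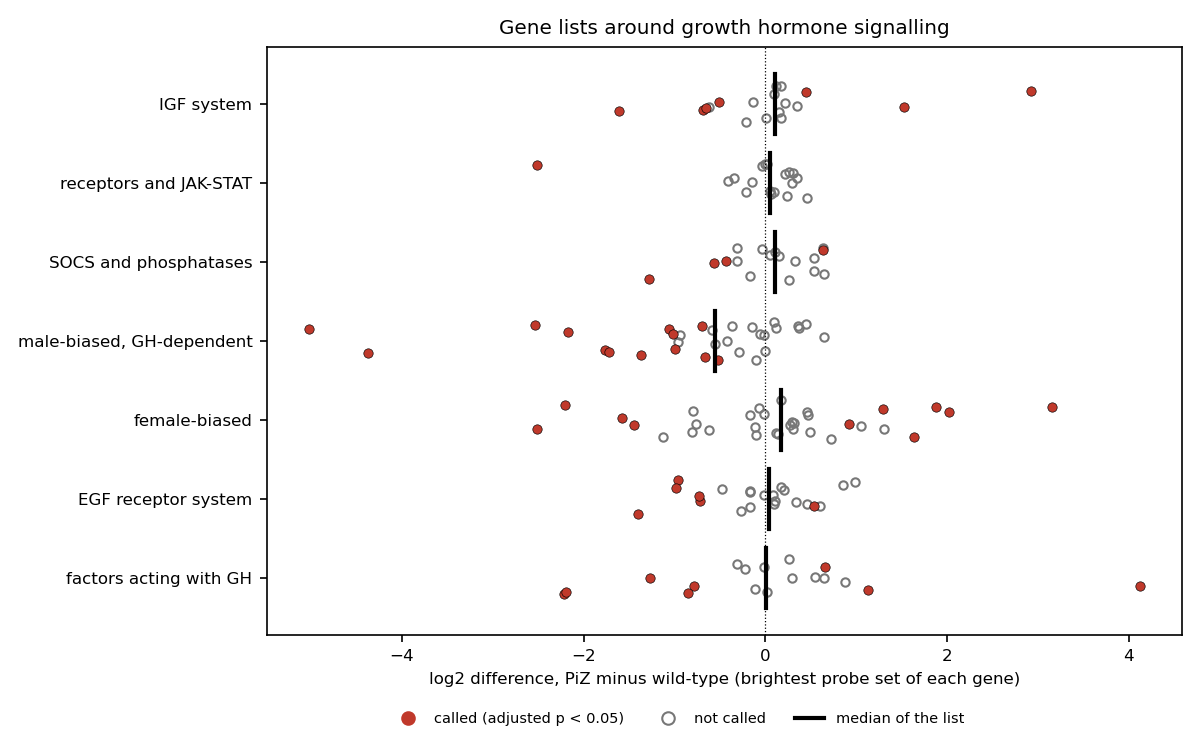
Log2 difference, PiZ minus wild-type (horizontal axis), of the brightest probe set of each gene in 7 lists; filled points were called, open points were not, and bars mark list medians. The male-biased list has the lowest median (-0.55), and the points of the female-biased list lie on both sides of 0.

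A list of liver transcription factors and other liver genes related to growth hormone signalling went both ways. Onecut1 (HNF6), which growth hormone induces through STAT5, read 5.98, 8.56 and 7.38 in PiZ, against 9.64, 9.42 and 9.49 in wild-type. PiZ replicate 1 was again the lowest and PiZ replicate 2 the highest of the PiZ arrays, as for Socs2 and Cish. The difference was -2.21 (SE 0.56, limma adjusted p = 0.0335), and it was lost without PiZ replicate 3 or any one wild-type array (adjusted p = 0.0935 to 0.113). The pioneer factors Foxa1 and Foxa2 fell by 2.20 (SE 0.16, adjusted p = 0.000516) and 1.27 (SE 0.21, adjusted p = 0.00879). Trib3, a stress-induced pseudokinase read by a probe set of suffix x, rose by 4.13 (SE 0.21, adjusted p = 9.97e-05). Bcl6, a repressor that is also in the male-biased list, read 9.32, 9.40 and 9.38 in PiZ, against 8.25, 9.20 and 8.73 in wild-type. The difference of 0.64 did not pass (limma adjusted p = 0.0815). It passed without wild-type replicate 2. Of 18 measured genes 3 rose and 5 fell (16.7% and 27.8%), against 9.97% and 11.2% of all genes, with a median of 0.00. Between 1 and 6 rose and between 3 and 5 fell when 1 array was left out.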

How the data were processed

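Liver RNA of 3 PiZ and 3 wild-type mice was read on Affymetrix arrays, 1 array a mouse. The authors deposited 1 log2 intensity for each probe set and array, made with affy and RMA per the submitters' processing notes, with versions and chip definition not given in the sources used here. RMA equalises the arrays' distributions, so a change shared by most genes is removed. The log2 scale was read from the values (2.30 to 14.98). The platform's annotation named 1 gene for 20380 of the 22626 probe sets that were not controls, several for 691 and none for 1555, and 64 control probe sets were left out. All 6 sample columns were matched.

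PiZ was set against wild-type by lmFit and eBayes of limma 3.58.1, run under R 4.3.3 (two-sided, no covariate), with Benjamini-Hochberg adjustment over the 22626 probe sets and a threshold of 0.05. A p-value sets the difference between the groups against the spread between mice within them, pooled over both groups and moderated by eBayes. The number of arrays limits the precision. Data were simulated for this comparison with 22626 probe sets, of which 200 were changed. Of those changed by 1, 59% were recovered, and of those changed by 2, 90%. Of 164 calls 15 were false. The simulated noise was independent between probe sets, and differences in RNA quality were not simulated. For lists, 1 probe set a gene was taken, the one with the highest mean, from 12393 genes. Genes were named by rule: up to 4 called genes of each list without overlap of the groups (2 by p where none was called), and a fixed set, of which Prlr, Mup1, Sult2a1 and Areg had no probe set of their own. The lists were written from general knowledge, and the members and lists were chosen with earlier results of these data known. Alternatives changed the scaling, the filter on dim probe sets, the variance model, array weights, the features in the fit and the arrays used. Tables came from pandas 2.3.3 under Python 3.11.15, and plots from matplotlib 3.10.9.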

Additional observations from a re-analysis of the deposited data

How the results depend on the processing

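The number of member probe sets called was 16, and it was 6 of 10 with 1 probe set a gene (fewer were tested), 9 at a threshold of 0.01, and 9 to 19 when 1 array was left out, with 9 without wild-type replicate 3. Over all probe sets 4327 were called, against 10981 with array weights, 2807 with the 3′ to 5′ covariate, 1133 at a threshold of 0.01, 1235 at 2-fold or more, and 1239 to 10544 when 1 array was left out. Centring on reference genes moved the median of all probe sets from 0.08 to 0.41 and the share of calls that were higher from 46.6% to 82.4%. Centring shifts all probe sets of an array by the same amount. The member median relative to the median of all probe sets was therefore bound to stay at -1.15. Of the 16 calls 13 remained. With the replicate number as a block 17 member probe sets and 5186 of all were called, and all 16 calls remained. Same-numbered arrays deviated together with correlations of 0.30, 0.30 and -0.04, which does not settle whether they were pairs. The numbers were not taken as pairs because the labels call the arrays biological replicates and state no pairing.

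Uncalled values changed sign as follows. Centring on reference genes gave 0.25 for Jak2 1421066_at, 0.14 for Stat5a 1421469_a_at, 0.22 for Stat5b 1422103_a_at, 0.024 for Egfr 1424932_at, 0.12 for Leprot, 0.18 for Stat3, 0.025 for Ptpn11, 0.19 for Cyp4a12a and 0.064 for Errfi1. Cyclic loess gave 0.0056 for Jak2 1421066_at and -0.018 for Lepr, and a further quantile normalization 0.023 for Jak2 1421066_at. With the 3′ to 5′ covariate and in PiZ replicate 1 alone, the values were -0.11 and -0.10 for Igf1r, -0.27 and -0.24 for Igf2r, -0.30 and -0.24 for Lepr, 0.0027 and 0.013 for Jak1, and -0.13 and -0.14 for Hbegf. Leaving out 1 array gave -0.22 to 0.068 for Jak2 1421066_at, -0.25 to 0.018 for Stat5b 1422103_a_at, -0.073 to 0.14 for Igf2r and -0.10 to 0.21 for Lepr. The cause was not tested. The files hold no detection calls, so differences of dim probe sets are uncertain in size.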
